A study of Caenorhabditis elegans with 34 samples.

Results

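The change in messenger RNA as wild-type C. elegans larvae passed from the second larval stage (L2) to the third (L3) was measured with 7 of the 34 spotted arrays of a germ line study. The 4 wild-type L3 arrays were set against the 3 wild-type L2 arrays, with the stage taken from the stage entry of each array's description. Both groups were synchronized populations of the wild-type strain N2, and the labels number the worm batches 1 to 3 at L2 and 1 to 4 at L3. On each array worm RNA (green) was hybridized against a reference RNA pool (red), and the deposited log ratio is given here with its sign changed, as worm RNA relative to the pool. The same 2 stages of glp-4(bn2) worms, which the labels describe as having no germ line, served as the strain for comparison, with 3 arrays at L2 and 4 at L3. The fit also held the later stages of both strains, with 4 wild-type and 4 glp-4 arrays at L4 and 3 and 4 in young adults, whose means are quoted for some genes. A further 5 arrays set fem-3(q23) directly against fem-1(hc17) worms, with no reference pool. All L2 arrays name the reference REF-vjr, while at L3 replicates 1 and 3 of each strain name REF-vjr and replicates 2 and 4 a mixed control. The titles of those mixed-control L3 arrays give the time as T2 and not as L3. In glp-4, the source name of L2 replicate 1 reads L3 against its title, and L2 replicate 2 pools batches 2 and 4. The descriptive text of wild-type L4 replicate 1 names L3 and that of replicate 4 reads L34, while their titles and stage entries give L4.

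Between L2 and L3 a larva molts, grows a new cuticle and enlarges its intestine, muscle and epidermis. The gonad arms elongate and germ cells multiply by mitosis through both stages. In hermaphrodites the first germ cells enter meiosis around the end of L3, and the first of them become sperm during L4, before oocytes are made in the adult. In RNA of whole worms, more cells of a type and more RNA per cell cannot be told apart.

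The 7 arrays held 10155 to 11292 values each. Of the 13323 probes, 5582 carried 1 gene name and 7741 none, and 957 names were gene-class symbols such as gldc-1. Arrays of L2 were more alike than those of L3: the median within-group SD was 0.18 on the log2 scale at L2 and 0.32 at L3. Among the L3 arrays, replicate 4 was the most like L2 and the least like L4. Its mean Pearson correlation over probes with the L2 arrays was 0.735, against 0.644 to 0.715 for the other L3 arrays. With the wild-type L4 arrays its mean correlation was 0.487, against 0.530 to 0.602 for the others. With the L3 arrays its mean correlation was 0.714, against 0.688 to 0.707 for the others, and the median SD of the remaining 3 was 0.31 without it and 0.27 to 0.32 without another. Its median over all probes was -0.11, against -0.02 to 0.05 on the other 6 arrays. Germ cells were the 1 marker set with named probes, namely the germ granule genes mip-1 and mip-2 and the synaptonemal complex gene syp-6. Markers of intestine, epidermis, muscle and neurons had no named probe, so the makeup of the larvae was not checked against them.

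Few probes passed the test for a difference between the stages, and with 3 and 4 arrays changes of other RNAs may have been missed. Of 10487 probes with at least 2 values in each group, 14 were higher and 5 lower at L3 in limma's test at a Benjamini-Hochberg adjusted p under 0.05, which is 0.133% and 0.0477% of those tested and 0.181% together. At an unadjusted p under 0.05 there were 410 higher (3.91%) and 438 lower (4.18%), together 8.09%. The median change over all tested probes was -0.01 log2 units, the SD of the changes was 0.45 and the median standard error 0.27. The L2 and L3 values did not overlap for 1236 of 10341 probes (12.0%), 595 with L3 above (5.75%) and 641 with L3 below (6.20%). With the worm batch as a block the count was 38, with 33 higher and 5 lower, and 13 of the 19 were among them. With the reference wording as a block the count was 16, and 11 of the 19 were among them. When the fit held the 7 arrays alone, no probe passed, although 895 had an unadjusted p under 0.05.

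The 19 probes are listed here by what names them, and 8 have a gene name. All 19 changed by at least 1 log2 unit with no overlap between the stages. Missing values were common among them: 6 of the 19 (31.6%) had a value on all 7 arrays, against 84.1% of the tested probes, and 11 of the 19 had 2 values at L2. A missing value leaves those changes resting on fewer arrays, and the part of missing spots in the result was not tested.

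The symbol-bearing gene that rose was gldc-1 on chromosome II, which encodes the glycine decarboxylase of the mitochondrial glycine cleavage system. Its values were -0.32 on L2 replicate 1 and -0.52 on L2 replicate 3, with none on replicate 2. At L3 they were 1.76, 1.29 and 1.45 on replicates 2, 3 and 4. Every L3 value lay above every L2 value, and gldc-1 rose by 1.92 ± 0.29 log2 units (± SE, adjusted p = 0.00377). It remained above its L2 level later, with a mean of 1.10 at L4 and 0.56 in adults. It passed in 9 of the 12 alternative settings in which it could be tested. The call was lost with the worm batch as a block (1.88, adjusted p = 0.0523), with that block and the reference wording, and with the 7 arrays alone.

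The symbol-bearing gene that fell was ndab-2 on chromosome III. At L2 its values were 3.43, 1.61 and 4.08. At L3 they were -0.76, 0.27 and -0.72 on replicates 2, 3 and 4. The L2 values were all high and spread over more than 2 log2 units, and the gene fell by 3.44 ± 0.63 log2 units (adjusted p = 0.0273). It passed in 7 of 15 alternatives, and leaving out L2 replicate 1, L2 replicate 3, L3 replicate 2 or L3 replicate 4 ended the call. The call was also lost with the reference wording as a block. Of its L3 values, only that of replicate 3 is from an array naming REF-vjr, as all L2 arrays do.

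Among genes with a sequence name only, F59E11.5 on chromosome V had the largest rise. Its values were -2.24 and -1.31 on L2 replicates 1 and 3. At L3 they were 1.92, 2.19, 1.56 and 0.83. All L3 arrays were high, and the change was 3.40 ± 0.42 (adjusted p = 0.00117), past the threshold in 12 of 13 alternatives. Y37E11B.2 (IV) rose by 2.27 ± 0.42 (adjusted p = 0.0244) and K02F3.2 (III) by 1.83 ± 0.35 (adjusted p = 0.0352). Both had 2 values at L2, more than 1 log2 unit apart, and they passed in 6 of 12 and 5 of 13 alternatives. With the worm batch as a block their adjusted p-values were 0.0903 and 0.106. Both calls were also lost with the reference wording as a block.

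The falls included W09G12.7 on chromosome IV, which had a value on every array. It stood at -1.37, -1.15 and -1.35 at L2. At L3 it stood at -2.41, -3.51, -2.28 and -3.06. The L2 arrays agreed within 0.3 log2 units, the L3 arrays were all lower, and the fall was 1.53 ± 0.27 (a change of -1.53, adjusted p = 0.00857). Leaving out any 1 of the L2 arrays ended the call. C13A2.4 (V) changed by -1.36 ± 0.29 (adjusted p = 0.0484) and passed in 2 of 17 alternatives. T01G5.7 (V) changed by -2.47 ± 0.48 (adjusted p = 0.0329), with L2 values of -0.06, -0.96 and 1.28, and passed in 6 of 15. With the worm batch as a block their adjusted p-values were 0.0979 and 0.114. The reference wording as a block also ended the calls of C13A2.4 and T01G5.7.

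Of the 11 probes without a gene name, 10 were higher at L3. Probe 860 was at 0.92, 0.65 and 0.62 at L2 and at 2.48, 2.57, 1.68 and 2.33 at L3, a rise of 1.53 ± 0.24 (adjusted p = 0.00316) that passed in 16 of 17 alternatives. Probe 4294 rose by 1.13 ± 0.17 (adjusted p = 0.00293) and passed in 14 of 17. Just outside the threshold, and chosen after their values were seen, were nssp-76 at 1.67 (adjusted p = 0.0517), btbz-2 at 1.02 (adjusted p = 0.0634), kin-35 at 2.06 (adjusted p = 0.0790) and the neuropeptide gene nlp-60 at -1.77 (adjusted p = 0.0856). Of these, nlp-60 had 2 values at each stage, and nssp-76 and kin-35 had none on L3 replicate 1. The L2 values of kin-35 were spread, at -1.846, 0.665 and -1.635.

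**Figure D1:**
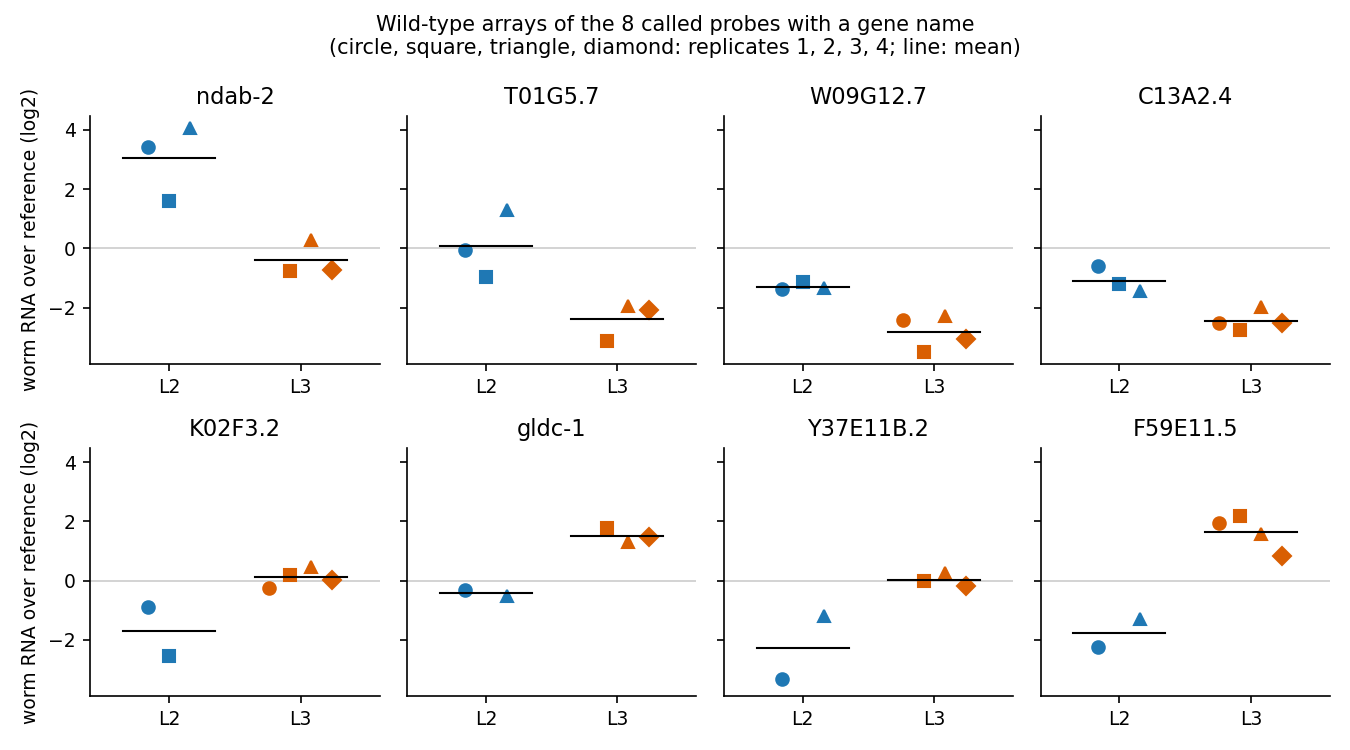
Worm RNA over reference (log2) on each wild-type array for the 8 probes with a gene name that passed the threshold; points are arrays, marked by replicate, and lines are group means. In each panel the L2 and L3 values do not overlap, and several genes have only 2 values at L2.

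The same stages in glp-4 worms gave a larger set of changes, whose size depended on the fit. There, 705 probes were higher and 375 lower of 10512 tested, which is 6.71% and 3.57%, or 10.3% together. That count of 1080 was 406 with the worm batch as a block and 240 with only the glp-4 arrays of these stages fitted. It was 470 without glp-4 L2 replicate 3 and 478 without L2 replicate 2, and the highest count with 1 array left out was 1211. Those arrays are separate from the wild-type ones and share the reference pool with them. Of the 19 wild-type probes, 4 could be tested in glp-4, namely W09G12.7, C13A2.4 and probes 4294 and 860, and all 4 passed there in the same direction. W09G12.7 changed by -1.26 (adjusted p = 0.00392) and C13A2.4 by -0.97 (adjusted p = 0.0319) in glp-4, and probes 4294 and 860 by 1.28 and 1.19. The rest had fewer than 2 glp-4 values at L2 or at L3, so they were not tested there. Where both stages had a value, 1 stage rested on 1 array. Of these, K02F3.2, Y37E11B.2 and probes 5096 and 7158 rose in wild type but were lower at L3 in glp-4. F59E11.5, ndab-2 and probes 12621, 9556, 10724 and 9570 had the wild-type direction.

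Most probes that passed in glp-4 had a change of the same sign in wild type. Of 692 probes that were higher at L3 in glp-4 and tested in both strains, 634 (91.6%) had a positive change in wild type, with a median of 0.32 against 1.12 in glp-4. Of 352 that were lower, 310 (88.1%) had a negative change in wild type, with a median of -0.33 against -0.95. These probes were picked by their glp-4 change, which raises its size in glp-4, so the medians of the strains are not compared. Picked instead by an unadjusted p under 0.05 in wild type, 354 higher probes had a median of 0.73 in wild type and 0.60 in glp-4, and 414 lower ones had -0.68 and -0.51. Over all 10181 probes tested in both strains the signs were the same for 66.0%, and the Pearson correlation of the changes over probes was 0.397, given as a description since probes are not replicates. The difference in the change between the strains, tested directly, passed for 0 of 10181 probes in limma's fit (0%), and 795 had an unadjusted p under 0.05 (7.81%), 3.25% with a positive and 4.56% with a negative wild-type minus glp-4 difference. With the worm batch as a block, 7 probes passed that test.

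**Figure D2:**
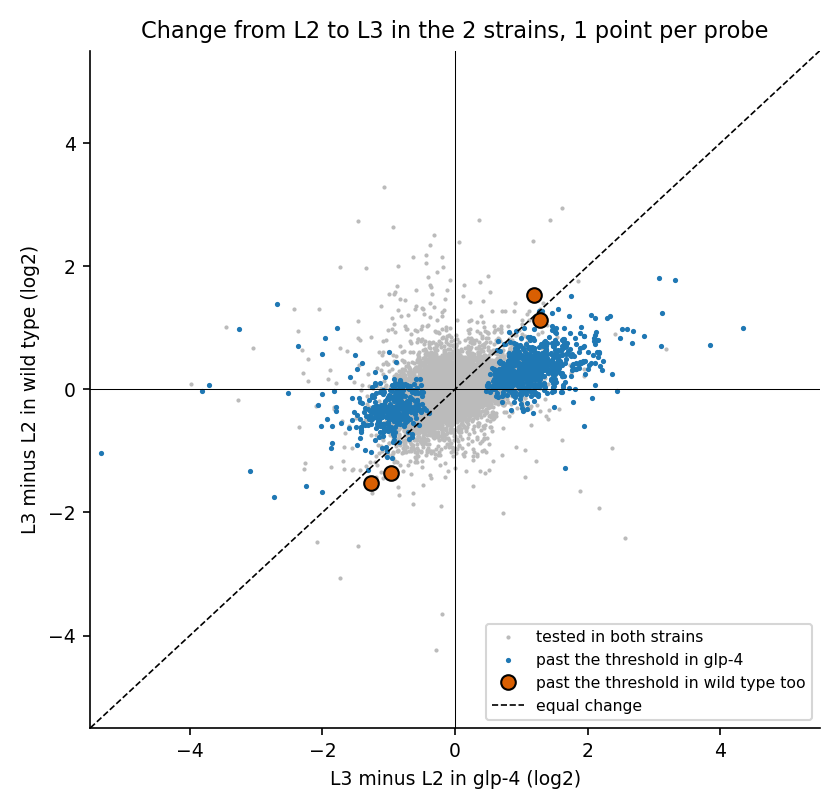
Change from L2 to L3 in glp-4 (horizontal axis, log2) and in wild type (vertical axis, log2), with 1 point for each of 10181 probes; blue points passed the threshold in glp-4 and the large orange points in both strains. The blue points lie mostly on the side of their glp-4 sign on the wild-type axis, and they were picked by the horizontal axis.

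Of 40 gene lists, 30 had a tested member, and no member of these passed the threshold in wild type. Genes given values in the lists were chosen after their values were seen, other than ndub-6, mpc-1, nucl-1, mip-1, lotr-1 and syp-6. Of 770 genes with a gene-class symbol tested, 31 were higher and 30 lower at an unadjusted p under 0.05, where the shares over all probes were 3.91% and 4.18%. The mitochondrial list did not include gldc-1, the symbol-bearing gene that rose past the threshold. Its mitochondrial genes, which cover respiratory complex subunits, carriers and mitochondrial ribosome proteins, had a median change of 0.14 in wild type, with 19 of 22 above 0 and 0 of 22 at an unadjusted p under 0.05. In glp-4 the median was 0.74, against -0.09 over all probes tested there, and 10 of 21 passed the threshold, all higher, against 6.71% of all glp-4 probes. Complex I subunit ndub-6 was at -0.02, 0.26 and -0.05 at L2 and 0.18, 0.64, 0.18 and 0.13 at L3 in wild type, a change of 0.22 ± 0.23 (adjusted p = 0.914). In glp-4 it changed by 1.23 ± 0.23 (adjusted p = 0.00138), from L2 values of -0.28, -1.10 and -1.50 on replicates 1 to 3. The mitochondrial pyruvate carrier gene mpc-1 changed by 0.17 ± 0.27 in wild type (adjusted p = 0.961) and by 1.45 ± 0.24 in glp-4 (adjusted p = 0.000727). The difference between the strains had an unadjusted p under 0.05 for 8 of 21 mitochondrial genes, against 7.81% of all probes, and for mpc-1 its adjusted p was 0.324, so it did not pass. The L2 levels differed between the strains: mpc-1 had a mean of -0.12 in wild type and -1.33 in glp-4 at L2, and means of 0.06 and 0.12 at L3. The wild-type L2 mean of mpc-1 rests on 2 arrays. Its glp-4 L2 values were spread, at -0.828, -1.275 and -1.897 on replicates 1 to 3.

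Carboxylesterase (cest) genes, some of them intestinal enzymes that assemble signalling molecules of the ascaroside family, had a median change of 0.11, with 4 of 25 higher and none lower at an unadjusted p under 0.05, against 3.91% and 4.18% of all probes. The gene with the smallest p, cest-2.2, was at 0.52, 0.50 and 0.66 at L2 and 1.48, 1.03, 1.78 and 1.13 at L3. Its groups did not overlap, with a change of 0.80 ± 0.26 in wild type (unadjusted p = 0.00588), and it was higher in glp-4 (adjusted p = 0.000861). In glp-4, 5 of 24 of these genes passed, all higher, against 6.71% of all probes there. The pals and irg genes, known from responses to intracellular pathogens and other infection, formed 1 list but lay on opposite sides of 0. All 19 tested pals genes were below 0, with a median of -0.32, which was -0.24 without L3 replicate 4, and 4 of the 19 were lower at an unadjusted p under 0.05, against 4.18% of all probes. The 3 tested irg genes were above 0, with a median of 0.26. Among the former pals-28 was at -0.76, -1.20 and -1.07 at L2 and -1.70, -1.87, -1.21 and -3.98 at L3, a change of -1.18 ± 0.45 in which replicate 4 was the lowest. Without replicate 4 it was -0.58 ± 0.33 (adjusted p = 0.689). In glp-4 the median of the pals genes was -0.16 and that of the irg genes 0.64.

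Neuropeptide genes and their receptors had a median of -0.26, with 3 of 16 lower at an unadjusted p under 0.05, against 4.18% of all probes, and -0.27 in glp-4, where 0 of 15 passed. The neuropeptide gene nlp-53 was at -0.36, 0.13 and -0.47 at L2 and -0.89, -0.81, -0.84 and -0.92 at L3, so its groups did not overlap, with a change of -0.63 ± 0.20. The gtnt family had 3 of 39 higher and 5 lower at that level, against 3.91% and 4.18% of all probes, with a median of 0.13. Splicing genes had a median of 0.01, translation factors -0.04, transcription machinery -0.06 and ribosome biogenesis -0.08. The nucleolar gene nucl-1 (nucleolin) changed by -0.49 ± 0.25 (adjusted p = 0.660), and in glp-4 by -1.43 ± 0.27 (adjusted p = 0.00146). By chromosome, the median change ran from -0.01 on I to 0.05 on IV.

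**Figure D3:**
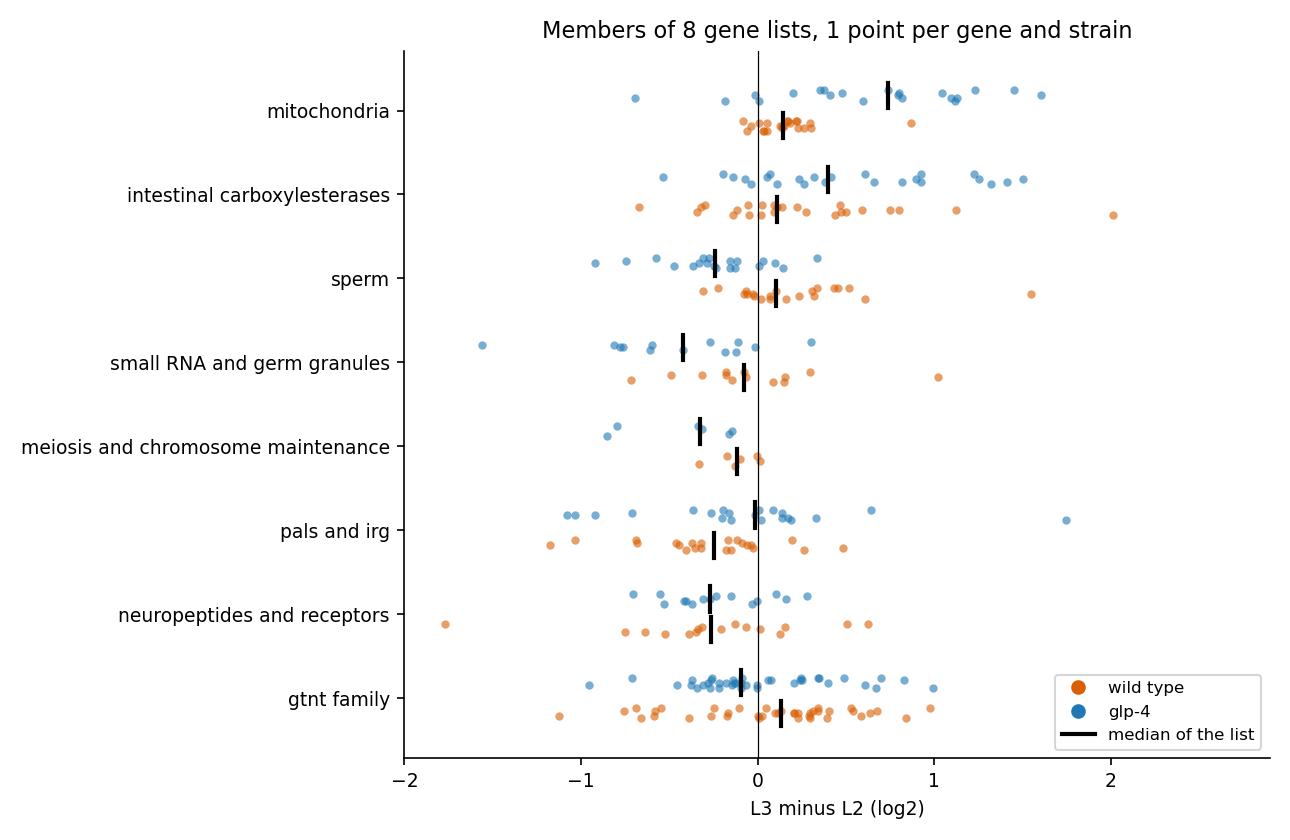
Change from L2 to L3 (log2) of the tested members of 8 gene lists, 1 point per gene, in wild type (orange) and glp-4 (blue); black bars are list medians. Mitochondrial genes have a median of 0.14 in wild type and 0.74 in glp-4, and the medians of the sperm and germ granule lists are lower in glp-4. In limma's test of the strain difference, 1 of 20 sperm and 1 of 13 germ granule genes had an unadjusted p under 0.05, against 7.81% of all probes.

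Lists of germ line genes had medians near 0 over the 4 L3 arrays. Germ granule and small RNA genes had a median of -0.07, and -0.42 in glp-4. At an unadjusted p under 0.05, 1 of 13 was higher and 1 lower, against 3.91% and 4.18% of all probes. These were nyn-3 at 1.02 ± 0.39 and enri-2 at -0.72 ± 0.23. The germ granule gene mip-1, which binds the granule scaffold MEG-3, was at -1.31, -1.12 and -1.25 at L2 and -0.99, -0.42, -1.17 and -1.70 at L3. Its change was 0.16 ± 0.33 (adjusted p = 0.971), with replicate 4 below and replicates 1 and 2 above every L2 array. The germ granule gene lotr-1 changed by -0.14 ± 0.28 and syp-6 by -0.01 ± 0.27. Meiosis and chromosome maintenance genes had a median of -0.12 over 6 genes, none past an unadjusted p of 0.05. The level of mip-1 in glp-4 was lower, at a mean of -2.52 at L2 and -3.30 at L3.

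Sperm genes had 2 of 21 higher at an unadjusted p under 0.05, against 3.91% of all probes, and a median of 0.10, which was 0.20 without L3 replicate 4. In glp-4 the median was -0.24. On the 16 members with all values, the median level was -0.40, -0.29 and -0.40 at L2 and -0.04, -0.19, -0.05 and -0.52 at L3. Less each array's own median over all probes, these were -0.45, -0.27 and -0.38 at L2 and -0.05, -0.24, -0.04 and -0.41 at L3. Replicates 1 to 3 of L3 were above every L2 array on both scales, and replicate 4 was below the L2 range on the first and within it on the second. The largest change in the list was that of msrp-2 (I), a gene chosen after its values were seen. It was at -3.03, -2.26 and -2.22 at L2 and at 0.05, -0.58, 0.34 and -3.64 at L3. Replicate 4 lay below all L2 arrays, and the change was 1.55 ± 0.69 over all 7 arrays (unadjusted p = 0.0342). Without replicate 4 it was 2.44 ± 0.51 (adjusted p = 0.0269), a value that rests on leaving out the lowest L3 array. Its wild-type means were 2.73 at L4 and 2.51 in adults. In the sperm gene spe-18 (II), too, replicates 1 to 3 of L3 lay above every L2 array and replicate 4 below. It was at -0.13, 0.02 and -0.03 at L2 and 0.78, 1.20, 0.47 and -0.22 at L3. Its change without replicate 4 was 0.87 ± 0.34 (adjusted p = 0.421).

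Leaving out L3 replicate 4 moved the count of probes past the threshold from 19 to 54, which is 0.518% of 10425 tested, with 49 higher (0.470%) and 5 lower (0.0480%). Of the 19, 17 were among the 54. Leaving out any other of the 7 arrays gave 4 to 22. Of the 49 higher probes, 45 had an L4 mean at least 1 log2 unit above their L2 mean. The 49 were picked against the same L2 arrays, so that count is in part set by the choice. The share over all probes is not given here. On replicate 4, 31 of the 49 were at or below the highest L2 array. These 31 were picked by their values and are described here with no test. All 31 had values on all 7 arrays and none had passed with replicate 4 included. Their median level was -2.08, -2.15 and -1.76 on the L2 arrays, 0.26, 0.04 and 0.34 on L3 replicates 1, 2 and 3, and -2.53 on replicate 4. Their order on these arrays follows from how they were picked. At L4, which the choice did not use, the median of their means was 2.42, and the array of batch 4 was the lowest, with a median of 1.59 against 2.41 to 3.09. In glp-4 the median of these probes was -2.01 at L2, -2.40 at L3, -2.35 at L4 and -1.65 in adults.

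Of the 31 probes, 12 have a gene name, among them the sequence-named F10D11.3 (I), F41F3.3 (V), Y1A5A.1 (III) and C34D4.2 (IV), chosen after their values were seen. F10D11.3 was at -4.37, -4.08 and -3.45 at L2 and at -0.74, -1.84, -0.54 and -4.18 at L3. Y1A5A.1 was at -0.60, -0.63 and -0.61 at L2 and at 0.70, 0.83, 0.98 and -0.86 at L3. In both, replicates 1 to 3 were high at L3 and replicate 4 was within or below the L2 range. Y1A5A.1 changed by 1.45 ± 0.25 without replicate 4, and F10D11.3 by 2.93 ± 0.67. Both passed the threshold without it because the 31 were picked from probes that did.

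**Figure D4:**
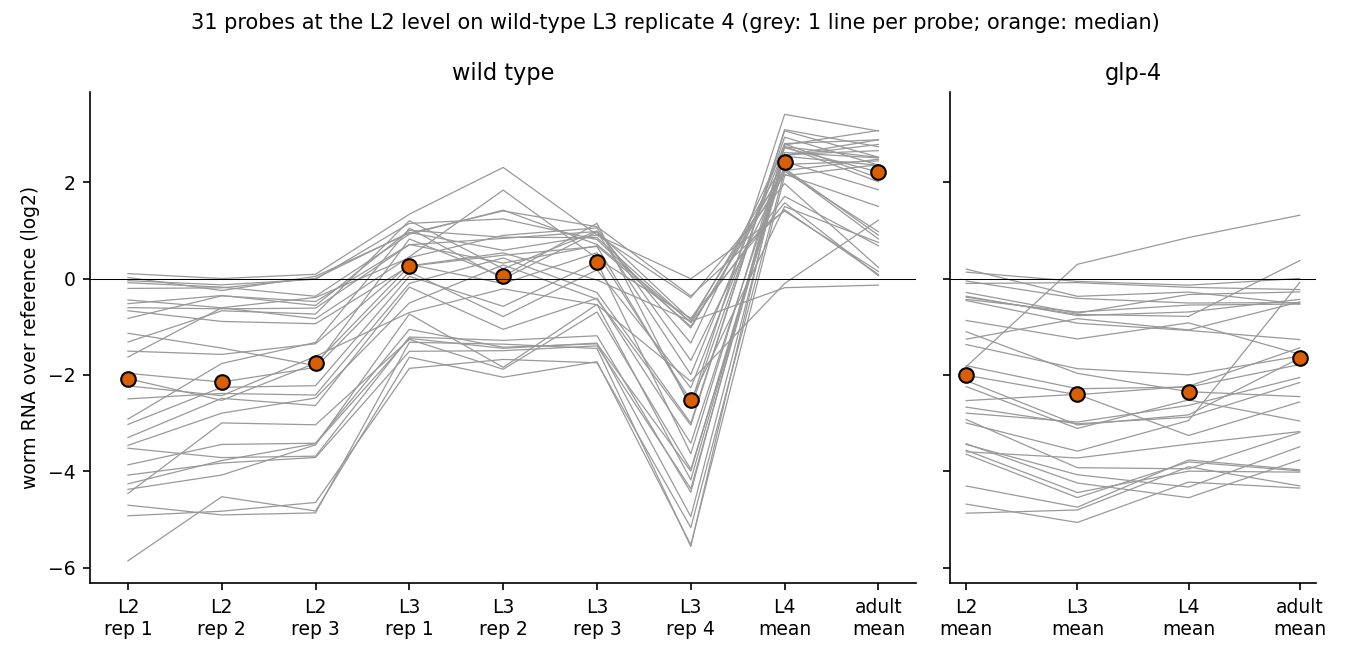
Worm RNA over reference (log2) of the 31 probes on each wild-type L2 and L3 array and as means at L4 and in adults (left), and as means in glp-4 (right); grey lines are probes and orange points are medians over probes. The median is near 0 on L3 replicates 1 to 3, at -2.53 on replicate 4, and between -2.40 and -1.65 at the 4 glp-4 stages.

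A measurement that played no part in these comparisons was made on the 5 fem arrays, in which fem-3(q23) worms, which make sperm, were labelled red and fem-1(hc17) worms, which make oocytes, green. The dye was the same way round on all 5. Of the 31 probes, 29 (93.5%) were higher in fem-3 on every array with a value and by at least 1 log2 unit on average, with a median of 5.42. Among all 10482 tested probes with 2 or more such values, 26.6% were positive on every array and 10.4% averaged at least 1. F10D11.3 averaged 6.34 ± 0.32 (SD, n = 5), Y1A5A.1 5.09 ± 0.37 and msrp-2 4.93 ± 0.66. The 14 probes that were higher at L3 over all arrays had a median of -0.03, with 3 of the 14 positive on every array (21.4%), among them gldc-1 at 1.49 ± 0.35 (SD, n = 5).

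Classed by the fem arrays alone, 950 tested probes were positive on all 5 arrays with a mean of at least 1. Their median change from L2 to L3 was 0.11, and 8.74% were higher at an unadjusted p under 0.05, against 3.57% of the 8830 probes in neither fem class. Over the 790 with all 7 values, the median level was -0.02, -0.09 and -0.14 at L2 and 0.10, 0.10, 0.12 and -0.29 at L3. Less each array's own median they were -0.07, -0.07 and -0.11 at L2 and 0.09, 0.05, 0.14 and -0.18 at L3. The first 3 L3 replicates were above every L2 array on both scales, and replicate 4 was below. Without replicate 4 the median change was 0.21, and 16.6% were higher at an unadjusted p under 0.05, against 4.01% of the probes in neither class. Of 946 tested then, 34 were higher past the threshold, against 0.470% of all probes. With replicate 4 it was 2 of 950, against 0.133%. Among the 34 are the 29 of the 31 probes above that were higher in fem-3, so this is largely the same set. The 707 probes higher in fem-1 had a median change of -0.09, with 1.70% higher and 5.37% lower at that level. In glp-4 the median changes of the fem-3 and fem-1 classes were -0.17 and -0.27.

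The difference between the strains in the L2 to L3 change also moved with that array. Without wild-type L3 replicate 4, 30 probes passed (0.295% of 10165), 29 of them with a positive wild-type minus glp-4 difference (0.285%) and 1 with a negative one (0.00984%), where 0 had passed with it. Of the 29, 21 were among the 49 higher probes above, so the sets are not separate. On every fem array 25 of the 29 were positive, against 26.6% of all tested probes with 2 or more fem values. Y1A5A.1 differed by 1.88 ± 0.34 between the strains (adjusted p = 0.0163), msrp-2 by 3.36 ± 0.70 (adjusted p = 0.0426), F41F3.3 by 2.61 ± 0.53 (adjusted p = 0.0426) and nyn-3, of a family with a nuclease-like NYN domain, by 2.16 ± 0.44 (adjusted p = 0.0426). Replicate 4 was the lowest wild-type L3 array for each of these genes, so leaving it out raised their differences. Their adjusted p-values follow in part from that choice. Without glp-4 L2 replicate 1 the count was 33, with 6 positive and 27 negative differences. What sets wild-type L3 replicate 4 apart, whether in the larvae or in the array, was not tested.

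**Figure D5:**
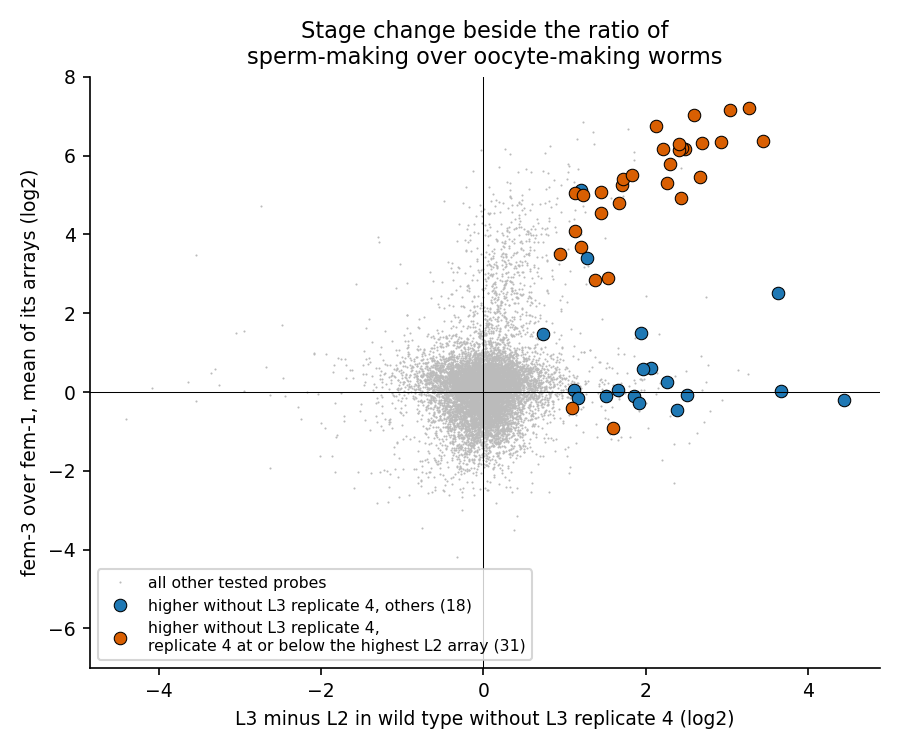
Change from L2 to L3 in wild type without L3 replicate 4 (horizontal axis, log2) and the mean of fem-3 over fem-1 (vertical axis, log2), with 1 point per tested probe; the 49 higher probes are in colour, orange where replicate 4 was at or below the highest L2 array. Of the 31 orange points 29 lie above 1 on the vertical axis, against 5 of the 18 blue points.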

How the data were processed

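Each array's values were deposited as 1 log ratio per probe of red over green, taken here as log2 (base not stated in the sources used here). On the reference arrays they ran from -8.24 to 7.65. Scanning used GenePix per the labels, while normalization and spot filtering are not stated there. The sign was turned to worm over reference. All 29 reference arrays were fitted as 8 strain-by-stage groups with limma 3.58.1 in R 4.3.3 (lmFit, eBayes, prior degrees of freedom 2.4), a probe needing 2 values per group, with two-sided p-values adjusted by Benjamini-Hochberg at 0.05. The calculation was checked on simulated data. Probe names came from the platform annotation, updated through RefSeq, with 5559 matched. Within a group the arrays are separate worm batches per the labels, with batches 2 and 4 pooled in glp-4 L2 replicate 2. The batch numbers pair arrays of a strain across stages, which the main fit did not use and the batch block did. Deviations from group means of same-numbered wild-type L2 and L3 arrays correlated at -0.06, 0.07 and 0.19. The p-values of the main fit rest on the spread between arrays within groups, shared over the 8 groups. Named genes were the symbol-bearing probes past the threshold without overlap, plus mip-1, lotr-1, syp-6, nucl-1, mpc-1 and ndub-6; all other named genes were chosen after their values were seen, and the sequence-named genes and probes past the threshold were given for completeness. The comparison, gene lists and tests were chosen with earlier results of these data known, and the fem classes and the 31 probes after their values were seen. Lists based on product descriptions and on protein or promoter sequence were not used here, and array number limits the precision.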

Additional observations from a re-analysis of the deposited data

Results flagged for a closer look

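Among 43 genes and probes checked, each with 4 wild-type L3 values, 6 had 1 L3 array far from the other 3 by Dixon's criterion, which chance meets in about 1 of 20 groups not chosen by their values. Some of the 43, among them Y1A5A.1, were chosen with the value of replicate 4 known, so that rate does not apply to them. Replicate 2 was at 0.64 for ndub-6, where the others ran from 0.13 to 0.18, and at 0.71 for probe 10724, where the others ran from 0.06 to 0.15. Replicate 4 was at -0.071 for cest-17 (others 0.30 to 0.35) and at -0.86 for Y1A5A.1 (others 0.70 to 0.98). Replicate 3 was at -0.15 for pals-7 (others -0.43 to -0.39). Replicate 1 was at -1.62 for the complex I subunit ndua-5 (others -0.27 to -0.18).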

How the results depend on the processing

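The count of 19 wild-type probes was 0 with only the 7 arrays fitted, 38 under quantile normalization and 38 with the replicate block. It was 16 with the reference wording as a block and 32 with the replicate block and the wording. With REF-vjr arrays only it was 53, with at least 3 values per group 4 and with values on every array 4. Leaving out 1 array gave 4 (L2 replicate 1) to 54 (L3 replicate 4), with 7 without L2 replicate 3. Shared probes numbered 16 under quantile normalization, 11 with the wording, 10 with block and wording and 2 with REF-vjr arrays only. The glp-4 count of 1080 was 240 with only its arrays, 406 with the block, 367 with block and wording, 372 with REF-vjr arrays, and 470 to 1211 without 1 array. The count of 0 for the strain difference was 9 under quantile normalization, 7 with the block, 7 with block and wording, 14 with REF-vjr arrays, and 0 to 33 without 1 array. The causes were not tested. Of the single genes and probes, 265 values kept direction and side of the threshold, 89 kept direction and lost the call, and 9 changed sign, all in genes that had not passed. These were mip-1 at -0.060 without L3 replicate 2 (-0.060 to 0.37 over the arrays left out), lotr-1 at 0.071 under quantile normalization and 0.017 without L3 replicate 4 (-0.27 to 0.017), and syp-6 at 0.025 centred, 0.093 under quantile normalization, 0.079 with the wording, 0.0075 with block and wording, 0.19 with REF-vjr arrays and 0.23 without L3 replicate 4 (-0.12 to 0.23). List medians moved by over 1 SD in 56 values and by less in 420. Missing spots limit the probes without a value on all 7 arrays.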
